A study of Zea mays with 12 samples.

Results

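EMB5, a4Lea and mtl2 are maize genes of protective proteins, and they are described here in root cells of plants attacked by the root-knot nematode Meloidogyne incognita. EMB5 (Gene ID 542280, synonym esp5) and a4Lea (Gene ID 732742) bear names of late embryogenesis abundant (LEA) proteins, and mtl2 (Gene ID 542475) is named as a metallothionein-like gene. The probe sets were found by the symbol or synonym of their gene, and the 3 genes were chosen on earlier results of these arrays. Known by then were the changes from 14 to 21 days in each cell type and the difference of EMB5 between cell types. The changes between days are therefore given as a description, with no test. The 3 genes have 4 probe sets (1 for EMB5, 1 for a4Lea and 2 for mtl2) of 17621 on the array besides the manufacturer's controls, and they are 3 of 1108 genes that the platform annotation names.

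LEA proteins are small, mostly hydrophilic proteins that accumulate late in seed maturation, when the embryo dries, and in vegetative tissue under drought, salt or cold. Em proteins, the class to which EMB5 belongs by name, are made in embryos under the control of abscisic acid and the transcription factor VP1. Metallothioneins are small cysteine-rich proteins that bind copper and zinc, and their transcripts are common in plant roots.

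The nematode turns root cells into enlarged feeding sites known as giant cells. Seedlings aged 2 weeks, of a genotype given as a cross of A188 and B73, received 1000 stage 2 juveniles each, and cells were cut from the roots by laser capture at 14 and at 21 days. Control and giant cells, each cut on both days, make 4 groups, each with 3 arrays that the labels call biological replicates. All 4 groups come from infested plants, because control cells were taken from parts of the same root systems without nematodes, and no plant free of nematodes is among them. A control sample held about 75 to 150 cells from 13000000 square micrometres, and a giant-cell sample about 40 to 60 cells from 5000000.

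Values are MAS5 signals, a linear measure of probe set brightness, and differences are on the scale of log2(signal + 9.5). Median signal ran from 182 to 230 over the 12 arrays. Bacterial and phage transcripts, which are added at hybridization, were brighter on giant-cell arrays by 0.58 log2 units at 14 days and 0.82 at 21 days. Array 3 of 14 days stood apart for heat shock in both cell types, with hsp22 at 7003 in control cells and 2816 in giant cells against at most 974.7 elsewhere. Of the 4 xylem markers 3 were lower in giant cells, with a summed marker signal of 715 to 3022 on control arrays and 308 to 1017 on giant-cell arrays. All 4 tested genes with growth-regulating factor symbols, of 8 on the array, listed as lateral root primordia, were higher. So were lg3 and rs2, the 2 tested of 3 genes listed as root meristem and cap. Whether these genes mark those tissues was not tested. On control arrays lg3 reached at most 79.5, rs2 67.3 and the tested probe sets of atGRF2 96.5. Those genes were bright enough to be tested only through giant cells, where they are high, so their calls support nothing by themselves. GRF12, GRF4 and GRF2 reached 405, 174 and 117 on control arrays. Of all 12080 probe sets tested, limma called 25.1% higher in giant cells and 17% lower (adjusted p under 0.05). Of 2 root hair and epidermis markers, rbohB was higher and rop6 lower. The tested photosynthetic marker, C4ppdkZm1, did not pass by the probe set that stood for it, and the phloem marker sut1 was too dim to be tested. No gene on the array matched the endodermis and cortex markers. In captured samples of this kind, fewer cells of a type and less transcript per cell cannot be told apart, and the part of the added transcripts and of other cell types in the results below was not tested.

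EMB5 was the member with the widest range, from near the bottom of the scale to well above the median signal. In control cells at 14 days its 3 signals were 21.4, 32.3 and 33.4, and at 21 days they were 212, 124 and 30.8. In giant cells the signals were 94.3, 23.4 and 78.3 at 14 days and 301, 222 and 448 at 21 days. All 3 giant-cell arrays of 21 days lay above every other array of the series.

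From 14 to 21 days the EMB5 mean went from 29.0 ± 6.66 to 122 ± 90.4 in control cells (SD, n = 3) and from 65.3 ± 37.2 to 324 ± 114 in giant cells. The fitted difference was 1.47 ± 0.61 log2 units (SE) for control cells and 2.26 ± 0.61 for giant cells, that is 2.78-fold and 4.79-fold on that scale. Of 12080 probe sets tested, 27 had a larger value than EMB5 in giant cells and 57 in control cells, which describes a gene chosen for such a value. In control cells the days overlapped, because array 3 of 21 days (30.8) lay within the range of 14 days. Without that array the difference in control cells was 2.17, and without array 1 of 21 days, the brightest, it was 0.94. In giant cells the days did not overlap, which 11.1% of all probe sets tested met in this direction.

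Ratios of 3′ to 5′ signal, which depend on how intact the RNA was and how far amplification reached, moved with the day as well. The ratio of cyclophilin was larger at 21 than at 14 days by 0.72 log2 units for control cells and 0.89 for giant cells, and that of actin by 0.67 and 0.78. Ratios of EF1a, ubiquitin and GAPDH were larger too, by 0.12 to 0.32 among control arrays and by 0.31 to 0.46 among giant-cell arrays. Their part in the day changes of the 3 genes was not tested. The added transcripts differed between days by -0.08 for control cells and 0.15 for giant cells, and with arrays scaled to them EMB5 stood at 1.60 and 2.09.

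Between cell types, the EMB5 signal was 2.31-fold higher in giant cells as the mean of both days (log2 1.21 ± 0.43 SE, 95% confidence interval 0.27 to 2.14, 6 arrays of each cell type). EMB5 passed the filter on dim probe sets only through giant cells at 21 days, the group where it is brightest: its signal was above the 40th percentile on all 3 arrays of that group, on 2 of control cells at 21 days and on none of 14 days, and 3 were needed. Its adjusted p with the filter (0.039) therefore supports nothing by itself. With no filter limma gave an adjusted p of 0.042. EMB5 was chosen with its value in this comparison already known, so that p is a description too. At a threshold of 0.05, 42.2% of the 12080 probe sets tested were called in that comparison, 25.1% higher and 17% lower, so a call by itself is common here. The cell types overlapped at 14 days, where array 2 of giant cells (23.4) lay among the control arrays, and did not overlap at 21 days, which 22.7% of probe sets met in this direction. With the filter, EMB5 did not pass when any 1 of 9 of the 12 arrays was left out (limma adjusted p up to 0.094), nor with arrays scaled to the added transcripts (0.57, adjusted p = 0.30). The 3′ to 5′ ratios differed between cell types too, giant minus control by -1.61 log2 units for actin, 0.51 for ubiquitin, 0.36 for EF1a, -0.05 for GAPDH and 0.01 for cyclophilin, and their part in the differences of EMB5 and a4Lea between cell types was not tested.

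**Figure D1:**
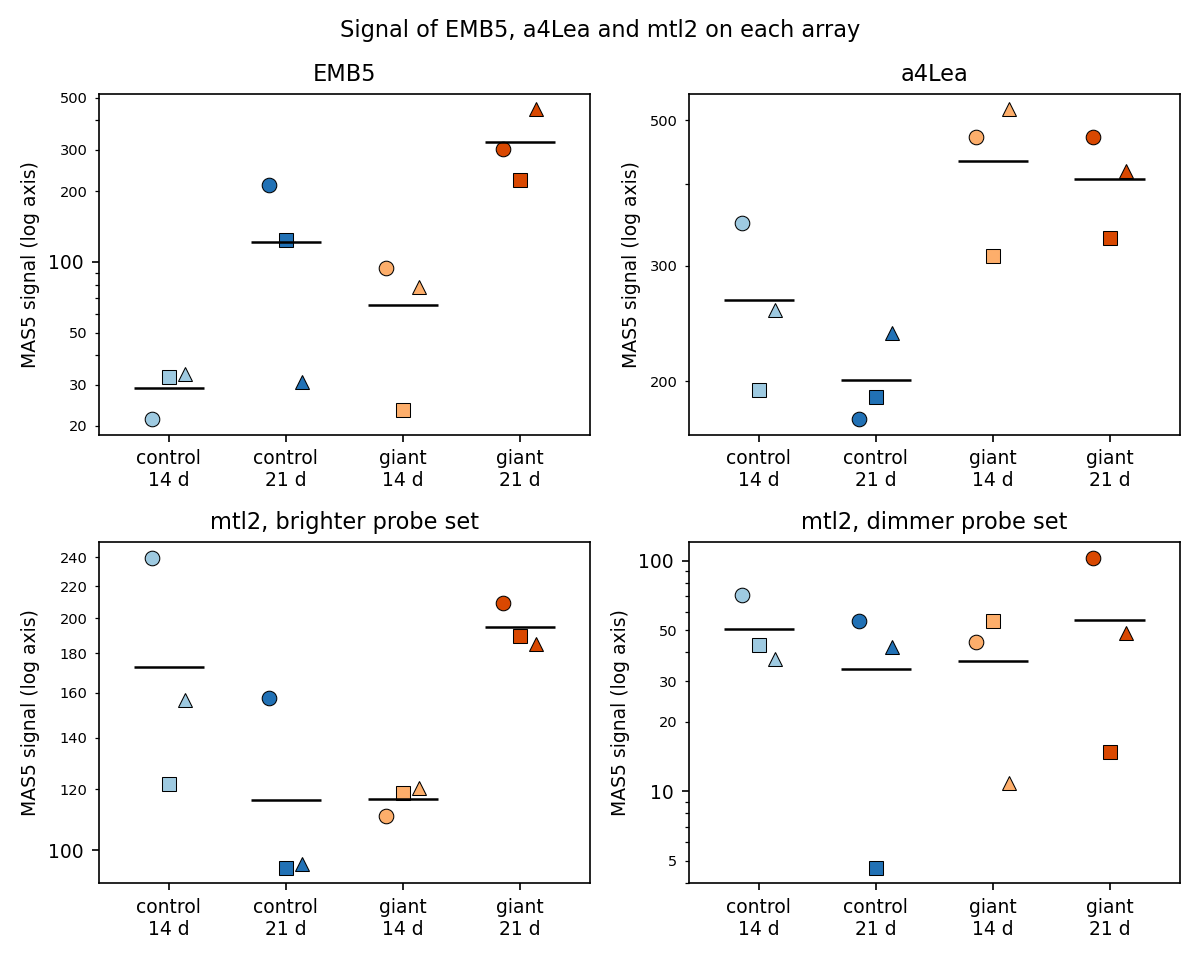
MAS5 signal (log axis) of each probe set of EMB5, a4Lea and mtl2 on the 12 arrays, by cell type and day, with circles, squares and triangles for arrays 1, 2 and 3 and a line at the mean of each group. EMB5 in giant cells at 21 days (222 to 448) lies above all other arrays. The mean of a4Lea is higher in giant cells on both days, with overlap of the cell types at 14 days. The brighter mtl2 probe set goes from 111 to 120 at 14 days to 185 to 209 at 21 days in giant cells.

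a4Lea, the second LEA gene, differed between cell types and little between days. Its signals in control cells were 348, 194 and 257 at 14 days and 175, 189 and 237 at 21 days. In giant cells they were 471, 311 and 521 at 14 days and 472, 330 and 419 at 21 days. Every giant-cell array was brighter than 5 of the 6 control arrays, and array 1 of control cells at 14 days lay above the dimmest giant-cell array of each day.

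As the mean of both days a4Lea rose 1.79-fold in giant cells (log2 0.84 ± 0.20 SE, 95% confidence interval 0.40 to 1.27, 6 arrays of each cell type, limma adjusted p = 0.0055). The call held without each array in turn (adjusted p from 0.0031 to 0.016). With arrays scaled to the added transcripts it did not (0.15, adjusted p = 0.56), and that scaling moved the median of all probe sets tested from 0.15 to -0.54. The cell types overlapped at 14 days and did not overlap at 21 days, which 22.7% of all probe sets tested met in this direction. From 14 to 21 days a4Lea differed by -0.36 ± 0.28 in control cells, with means of 266 ± 77.7 and 201 ± 32.6 (SD, n = 3). In giant cells the difference was -0.07 ± 0.28, with means of 434 ± 110 and 407 ± 71.5, and the days overlapped in both cell types. The small value in giant cells changed sign with quantile normalization (0.03).

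The metallothionein-like gene mtl2 had a lower mean signal at 21 than at 14 days in control cells and a higher one in giant cells. The gene was chosen with these changes known, so they were not tested. Its brighter probe set, whose name marks probes that can also match other sequences, had signals of 240, 122 and 156 in control cells at 14 days and 157, 94.9 and 95.8 at 21 days. In giant cells its signals were 111, 119 and 120 at 14 days and 209, 190 and 185 at 21 days. At 14 days all giant-cell arrays lay below all control arrays, by as little as 120 against 122, and at 21 days all lay above them.

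The mtl2 difference from 14 to 21 days was -0.52 ± 0.31 log2 units (SE) in control cells, where the days overlapped, and 0.69 ± 0.31 in giant cells, where they did not. Days apart in giant cells, higher at 21 days, were met by 11.1% of all probe sets tested. Control cells had means of 173 ± 60.6 and 116 ± 35.8, and giant cells 117 ± 5.22 and 195 ± 12.8 (SD, n = 3), so the giant-cell arrays of a day were closer to each other than the control arrays. Averaged over both days the cell types differed by 0.13 ± 0.22 (95% confidence interval -0.35 to 0.61, limma adjusted p = 0.66), and with arrays scaled to the added transcripts by -0.53 (adjusted p = 0.10). Giant-cell arrays below all control arrays at 14 days were met by 17.3% of probe sets tested, and giant-cell arrays above all control arrays at 21 days by 22.7%.

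The dimmer mtl2 probe set was below the 40th percentile of every array and was not tested. On control arrays it ran from 37.6 to 70.9 at 14 days and from 4.66 to 55.0 at 21 days. On giant-cell arrays it ran from 10.8 to 54.6 at 14 days and from 14.7 to 103 at 21 days. All 4 groups overlapped. Its differences from 14 to 21 days were -0.69 in control cells and 0.39 in giant cells, the same signs as those of the brighter probe set, but the giant-cell sign turned without 1 array (lowest value -0.13).

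Set side by side, no gene of the 3 had control arrays of 21 days apart from those of 14 days, which 14.5% of all probe sets tested had in either direction. Each tested probe set of the 3 genes had giant-cell arrays of 21 days above the control arrays of that day, as did 22.7% of all probe sets tested. Differences from 14 to 21 days in giant cells were 2.26 for EMB5, 0.69 for the brighter mtl2 probe set and -0.07 for a4Lea, against a median of -0.04 over all probe sets tested. In control cells they were 1.47, -0.52 and -0.36, against a median of -0.02.

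**Figure D2:**
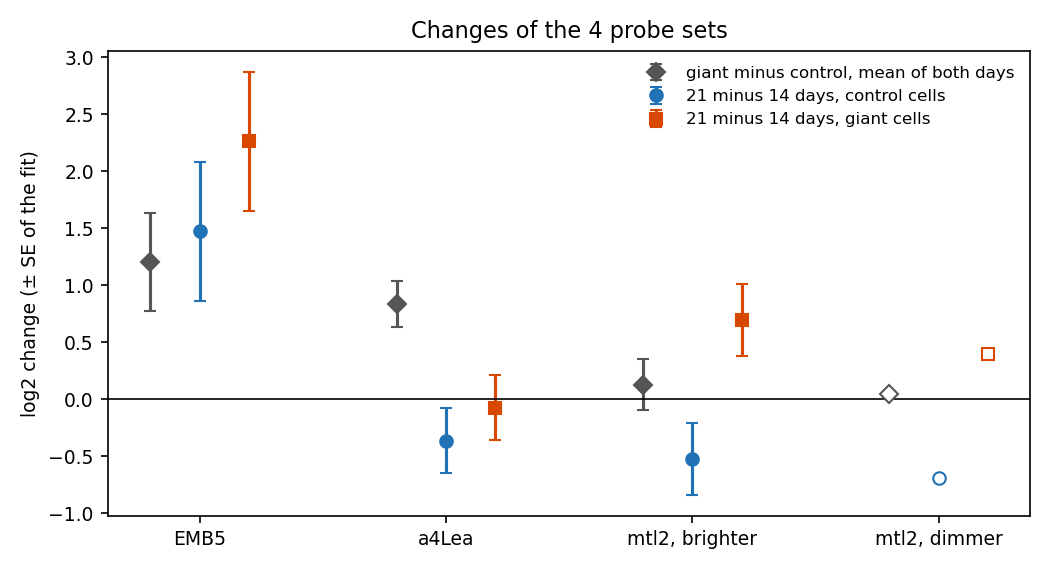
Log2 change (± SE of the fit) of the 4 probe sets between cell types as the mean of both days (grey diamonds), and from 14 to 21 days in control cells (blue circles) and in giant cells (orange squares), with open symbols and no SE for the dimmer mtl2 probe set, which was not tested. EMB5 is above 0 in all 3, a4Lea between cell types alone, and mtl2 has opposite signs with time in the 2 cell types.

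**Figure D3:**
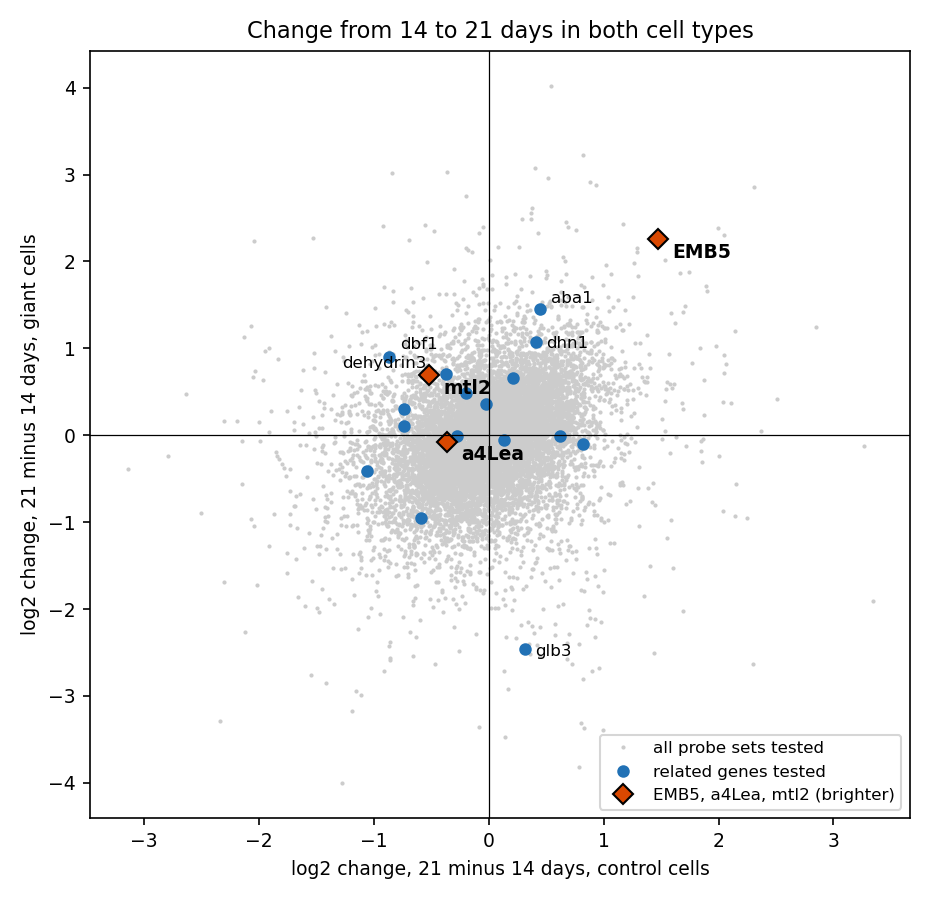
Log2 change from 14 to 21 days in control cells (x axis) and giant cells (y axis) for all 12080 probe sets tested (grey), the 16 related genes tested (blue) and EMB5, a4Lea and mtl2 (orange). EMB5 (1.47 and 2.26) lies at the upper right edge, mtl2 and dbf1 at the upper left, and glb3 at -2.46 in giant cells.

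Other genes of LEA proteins, metallothioneins, abscisic acid, seed maturation and metal homeostasis were taken from lists matched on symbols and synonyms. The lists hold 30 genes on the array beside the 3 genes above, of which 16 were bright enough to be tested, and none is a further metallothionein. As the mean of both days 3 of the 16 were higher and 2 lower in giant cells (31.2% called, against 42.2% of all probe sets tested), with a median of 0.36 against 0.15. From 14 to 21 days limma called none of the 16 in either cell type, against 0.637% of all probe sets tested in giant cells and 0.0248% in control cells. At an unadjusted p under 0.05 there were 5 of the 16 in giant cells and 3 in control cells, against 2134 and 1190 of the 12080. For the difference of the day change between cell types limma called none of the 16 and 0% of the 12080, and at an unadjusted p under 0.05 there were 3 and 839.

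Among other LEA and dehydrin genes, 0 of 2 tested passed between cell types, against 42.2% of all probe sets tested. The gene dhn1 (synonyms rab17 and lea2) encodes a dehydrin, a class of LEA protein induced by drought and abscisic acid. Its signals were 50.8, 718 and 129 in control cells at 14 days and 68.6, 1116 and 152 at 21 days, so array 2 of each day stood far above the others. In giant cells they were 134, 113 and 487 at 14 days and 615, 266 and 461 at 21 days, and the cell types differed by 0.51 ± 0.69 (limma adjusted p = 0.58).

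The gene MGL3 (synonym mlg3) is named as a LEA protein of another group and was too dim on most arrays to be tested with the filter. Its signals were 126, 858 and 61.1 in control cells at 14 days and 111, 512 and 68.9 at 21 days, again with array 2 the brightest on both days. In giant cells they were 24.9, 7.09 and 12.4 at 14 days and 104, 92.2 and 103 at 21 days, so the days did not overlap. In this direction 11.1% of all probe sets tested did not either. With no filter, MGL3 was lower in giant cells by -1.88 ± 0.58 (limma adjusted p = 0.024), the opposite direction to EMB5 and a4Lea. With no filter its difference from 14 to 21 days was 2.23 ± 0.82 for giant cells (adjusted p = 0.22) and -0.25 ± 0.82 for control cells (adjusted p = 0.96).

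The second dehydrin gene, dehydrin3 (synonym dhn2), stood at 0.17 ± 0.27 between cell types (limma adjusted p = 0.63). Its brightest probe set had 949, 1429 and 3500 in control cells at 14 days and 1314, 1603 and 1033 at 21 days. In giant cells it had 1500, 1281 and 1151 at 14 days and 1616, 2626 and 2263 at 21 days, with no overlap between days. In this direction 11.1% of all probe sets tested had none either. The difference of 0.70 ± 0.38 between days in giant cells did not pass (adjusted p = 0.36).

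**Figure D4:**
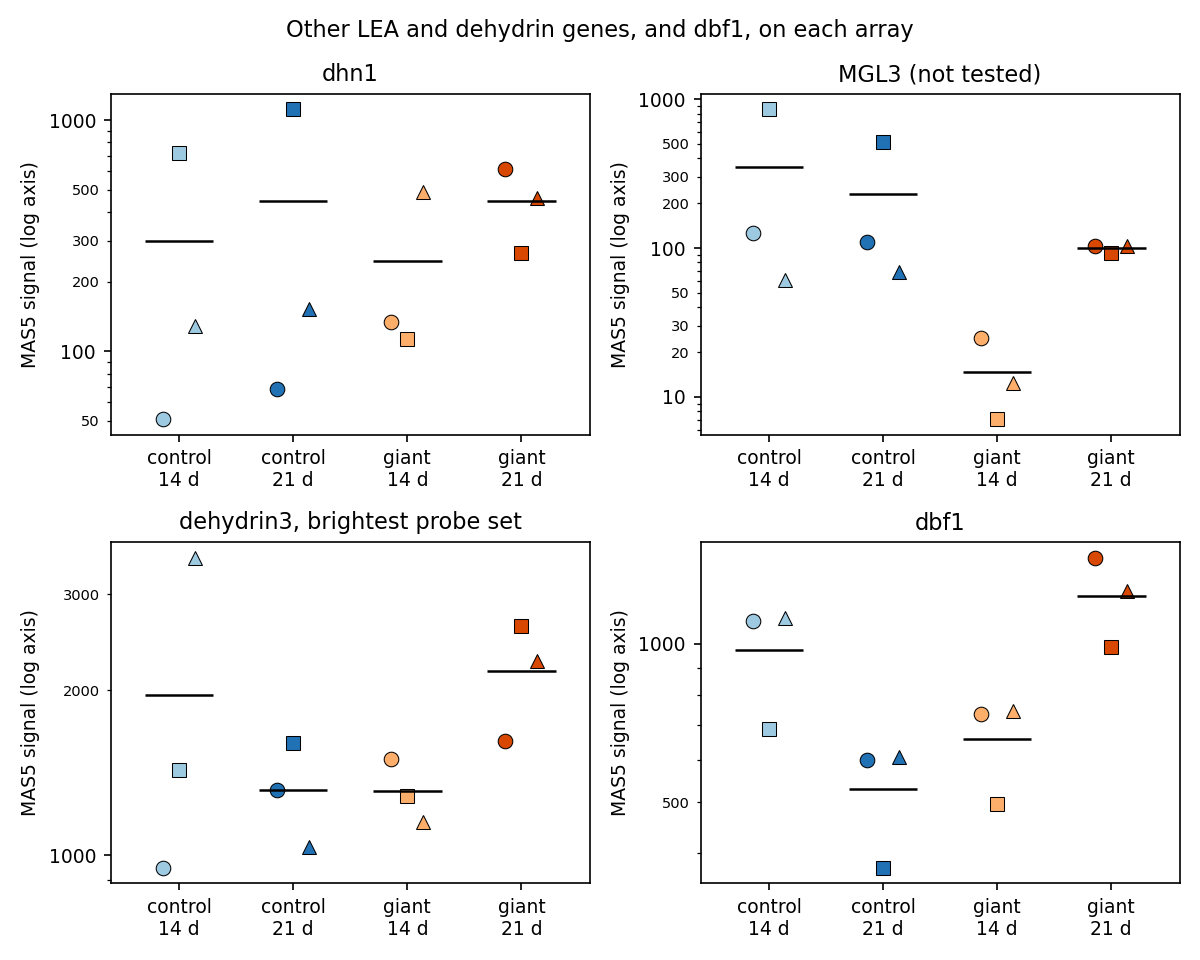
MAS5 signal (log axis) of dhn1, MGL3, the brightest dehydrin3 probe set and dbf1 on the 12 arrays, with symbols as in the plot of the 3 genes by array. In control cells array 2 (squares) is brightest for dhn1 and MGL3 on both days, and MGL3 in giant cells goes from 7.09 to 24.9 at 14 days to 92.2 to 104 at 21 days.

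Of 10 tested genes of abscisic acid synthesis and response, 2 fell in giant cells and none rose, against 17% of all probe sets tested that were lower and 25.1% higher. They were the aldehyde oxidase genes AO2 (-3.10 ± 0.29, 8.56-fold, limma adjusted p = 1.4e-05) and AO1 (-2.44 ± 0.25, 5.42-fold, adjusted p = 2.9e-05), members of an enzyme family that carries out the last step of abscisic acid synthesis and oxidizes other aldehydes too. AO2 ran from 557 to 898 on control arrays and from 39.3 to 122 on giant-cell arrays, and both falls held under all 20 alternatives. The protein phosphatase gene PP2C stood at 0.69 ± 0.28 (adjusted p = 0.063), and its relative pp2c-1 at 0.39 ± 0.17 (adjusted p = 0.087). Both passed as higher when array 1 of 14-day control cells was left out (adjusted p = 0.029 for PP2C, 0.033 for pp2c-1) or array 3 of 21-day control cells (0.0064 and 0.047). Leaving out array 1 of 21-day giant cells also made pp2c-1 pass (adjusted p = 0.0497). The genes vp14, of the carotenoid-cleaving step that leads to abscisic acid, and vp9, of an earlier carotenoid step, stood at -0.0028 ± 0.33 (adjusted p = 0.995) and -0.14 ± 0.24 (adjusted p = 0.66). With arrays scaled to the added transcripts vp9 passed as lower (-0.81, adjusted p = 0.021).

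Regulators linked to these genes were either not tested or did not pass between cell types. VP1 is the known activator of Em genes in the seed, and all 4 vp1 probe sets were too dim to be tested, with group means from 2.07 to 34.7. The bZIP gene mEmBP-1a, named for a factor that binds the promoter of a wheat Em gene, stood at 0.51 ± 0.24 (limma adjusted p = 0.11). The gene dbf1, an AP2 factor that binds a drought-response element of rab17, stood at 0.34 ± 0.20 (adjusted p = 0.19). In control cells its signals were 1103, 690 and 1120 at 14 days and 600, 375 and 610 at 21 days. Giant cells had 735, 496 and 745 at 14 days and 1458, 984 and 1260 at 21 days. The days did not overlap in either cell type, lower at 21 days in control cells (-0.87 ± 0.28, adjusted p = 0.38) and higher in giant cells (0.90 ± 0.28, adjusted p = 0.13). Of all probe sets tested, 14.5% had no overlap of days in control cells, in either direction, and 11.1% were higher without overlap in giant cells. The difference of the day change between cell types was 1.77 ± 0.40 for dbf1 (adjusted p = 0.36).

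Seed genes gave a mixed picture. Of 10 genes 2 were tested, and the gamma zein gene gz27, of a seed storage protein, was higher in giant cells (1.33 ± 0.29, limma adjusted p = 0.0030), while its other 2 probe sets, not tested, had group means of at most 21.2. The globulin gene glb3 stood at 1.07 ± 0.43 between cell types (adjusted p = 0.063), and passed when array 3 of 21-day control cells or array 1 of 21-day giant cells was left out (adjusted p = 0.037 and 0.022), and with an offset of 50 (0.90, adjusted p = 0.027). Its giant-cell signals were 409, 329 and 545 at 14 days and 25.7, 207 and 51.6 at 21 days (-2.46 ± 0.61, adjusted p = 0.078), the opposite direction to EMB5. Without array 2 of giant cells at 21 days this difference passed (-3.21, adjusted p = 0.018). The 3 giant-cell arrays of 14 days were the brightest for glb3 and were alone enough for it to meet the filter on dim probe sets. Its adjusted p-values, between cell types and between days, therefore support nothing by themselves. The seed markers glb1, glb2, ole1 and vp1 were all too dim to be tested, with summed signals of 32.7 to 101 on the 12 arrays.

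Metal homeostasis genes other than mtl2 had 2 of 5 tested. Both were ferritin genes, which encode the iron storage protein of plastids. Both were higher in giant cells, where 25.1% of all probe sets tested were called higher. The differences were 1.30 ± 0.28 for fer2 (limma adjusted p = 0.0028) and 0.77 ± 0.14 for fer1 (adjusted p = 0.0013). With arrays scaled to the added transcripts neither passed, nor did gz27 (adjusted p up to 0.82 for fer1), and none of the 3 changed sign. The iron-phytosiderophore transporter gene ys1, tested with no filter alone, was lower by -2.02 ± 0.46 (adjusted p = 0.0051). The nicotianamine synthase gene nas1 was listed at 3939 on array 3 of control cells at 14 days, 414 on array 1 and at most 41.2 on the other 10 arrays for 1 of its 4 probe sets. Array 3 of control cells at 14 days was the brightest for the nas1 probe sets at 1540 and 726 on it too, and not for the last (24.1).

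**Figure D5:**
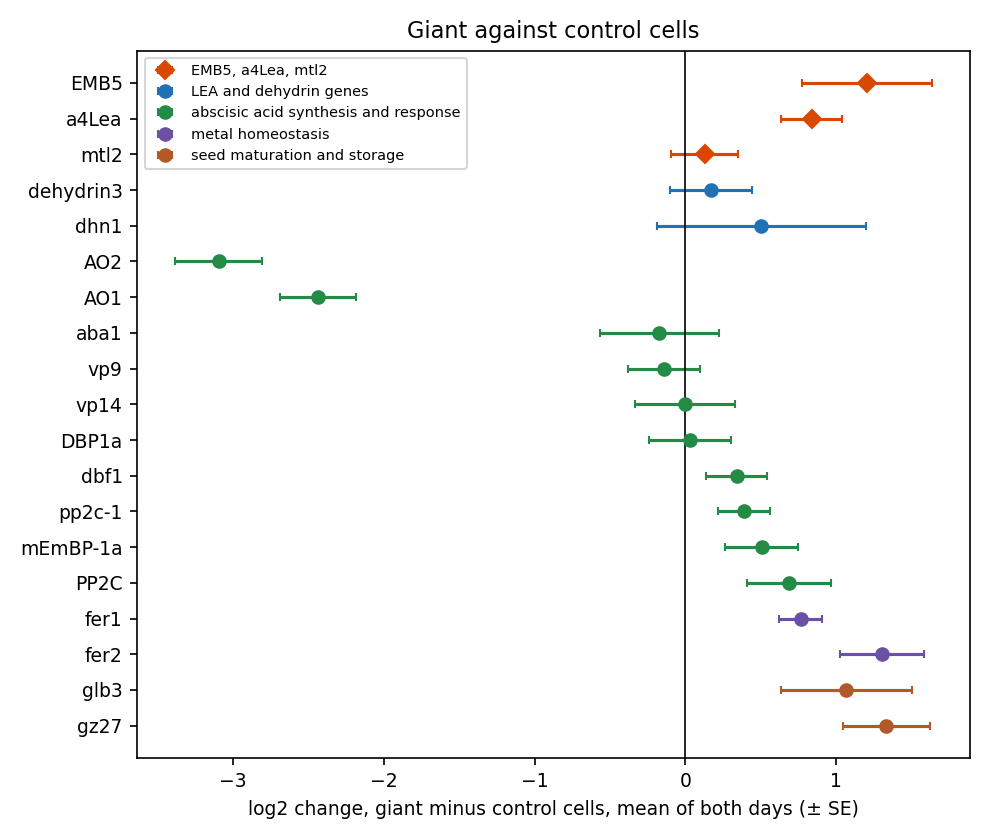
Log2 difference between giant and control cells, averaged over days (± SE of the fit) for the tested probe sets of EMB5, a4Lea and mtl2 and for the 16 related genes tested, grouped by list. AO1 and AO2 lie far below 0 at -2.44 and -3.10, and a4Lea, fer1, fer2 and gz27 pass above 0, as does EMB5, which passed the filter only through giant cells at 21 days.

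Among 689 named genes tested, those whose log2 signal ran most like that of each gene over the 12 arrays were found by Pearson correlation, given without a test because the arrays form 4 groups. For EMB5 they were dad1 (r = 0.92), the acidic ribosomal protein gene arpp3 (0.91) and the prohibitin gene phb3 (0.87), and with group means removed their r was 0.78, 0.78 and 0.50. For a4Lea they were the glutamine synthetase gene gln2 (0.95), PPO (0.92) and GBF1 (0.92), and with group means removed 0.90, 0.72 and 0.77. For mtl2 they were dbf1 (0.82), the histone deacetylase gene Hda1 (0.81) and the glutamine synthetase gene Gln1-4 (0.80), and with group means removed 0.52, 0.74 and 0.74.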

How the data were processed

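Each sample has 1 array, and its deposited intensity values are MAS5 signals from Affymetrix Expression Console, per the submitters' processing notes. The trimmed mean of every array was 500.1 or 500.2, so the authors scaled the arrays to a common level. Software version, scaling target and scan batches were not given in the sources used.

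Signals had 9.5 added (their 10th percentile over all arrays) before log2, which compresses changes of dim genes. Probe sets above the 40th percentile of their array on at least 3 arrays were tested (12080 of 17621). Group means were modelled in R 4.3.3 by limma 3.58.1 (lmFit, then eBayes allowing a trend of variance), p-values are two-sided and adjusted by Benjamini-Hochberg over all probe sets tested, and the threshold was 0.05. The fit was tested on simulated data, with 200 of 12080 probe sets changed between cell types. It recovered 0 of them at a change of 0.5 log2 units, 105 at 1 and 189 at 2, with 0, 6 and 20 false calls. A small difference that did not pass can therefore be a missed one. In the real comparison 42.2% were called, so these shares do not carry over directly.

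The 3 genes and the lists were chosen with earlier results of these data known. Names come from the platform annotation, updated by Gene ID from RefSeq (B73 assembly). Of the lists, 3 genes whose synonyms name another kind of gene (fl1, GLB1 and PER1) were left out, mEmBP-1a was added by its name, and the brightest probe set stood for a gene. The rule for named genes takes all probe sets of the 3 genes, the 3 most similar named genes of each, and from each list the called genes or those of smallest p. MGL3, PP2C, pp2c-1, glb3, ys1, nas1, vp1, vp9, vp14 and mEmBP-1a are named beyond it, after their values were seen. Same-numbered arrays deviated together (correlation over 0.1) in 4 of 18 pairs, so the numbers were not taken to pair the samples in the main fit. Single genes did follow the number. A probe set of the photosynthetic marker C4ppdkZm1 ran from 2.32 to 47.5 on array 1 of the 4 groups and from 318.5 to 696.6 on array 3. A fit with the numbers as a block is among the alternatives.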

Additional observations from a re-analysis of the deposited data

Results flagged for a closer look

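The brighter mtl2 probe set is given here because all 3 control arrays of 21 days lay below the mean of control cells at 14 days, whereas all 3 giant-cell arrays of 21 days lay above the mean of giant cells at 14 days. The day change in giant cells minus that in control cells was 1.22 log2 units, and this difference was not tested, since the gene was chosen with the day changes known. Of the 12080 probe sets tested, 390 had a larger value, and limma called none of the 12080 in that comparison.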

How the results depend on the processing

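Alternatives were offsets of 1 and 50, quantile normalization, scaling to the added transcripts, no filter, a 60th percentile filter, no variance trend, the replicate block, and leaving out each array. The 60th percentile filter left EMB5 and mtl2 untested. Scaling to the added transcripts ended the calls of EMB5 (0.57) and a4Lea (0.15) between cell types and reversed mtl2 (-0.53). It moved the related genes called from 5 to 3 and probe sets called over days from 3 to 0 in control cells and from 77 to 19 in giant cells. It turned the split between cell types from 59.7% to 8.19% higher. With no filter the related genes called were 8, and probe sets called over days 1 and 42. Without a variance trend the latter counts were 1 and 48, and with the replicate block also 1 and 48. The replicate block left EMB5 at 1.21 (limma adjusted p = 0.048) and changed no call of the 3 genes. In giant cells quantile normalization gave 117 and the 60th percentile filter 125. Leaving out 1 array gave EMB5 between cell types 0.86 to 1.47, and 3 of 12 such fits passed. It gave 5 to 8 related genes between cell types (8 with array 3 of 21-day control cells left out), 0 to 1 over days in giant cells, 0 to 2 probe sets over days in control cells, 4 to 205 in giant cells, and 0 to 9 for the difference of day changes (9 with array 2 of 21-day giant cells left out). Among values without a test, the day change of EMB5 in control cells ran from 0.94 to 2.17 and that of the dimmer mtl2 probe set in giant cells from -0.13 to 0.97 when 1 array was left out. Causes were not tested.

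The 3 arrays per group limit the precision. Signals of EMB5 at 14 days and of the dimmer mtl2 probe set were near the bottom of the scale, where their ratios are least certain. In giant cells the count of day calls was 4 with array 1 of 21 days left out and 205 with array 1 of control cells at 14 days left out. It was 9 and 13 with arrays 2 and 3 of 14-day giant cells left out, 15 with array 3 of 21-day giant cells, and 37 and 44 with array 2 of control cells at 14 and at 21 days, so the background share of calls depends on single arrays.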
